A study of Homo sapiens with 2 samples.

Results

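The genes described are 7 members of the fibroblast growth factor (FGF) family: FGF13 and its intracellular relatives FGF11, FGF12 and FGF14, and the secreted factors FGF1, FGF2 and FGF5. They were taken by name from the array's annotation as 7 of 19775 genes, and 19 of the 54675 probe sets read them. The members were selected on results of these 2 arrays, with the S100A7 over vector difference of FGF13 in view, so the values below describe the arrays and are not tests. Total RNA came from stable transfectants of MDA-MB 231, a highly invasive human breast cancer line without estrogen receptor, with 1 array for each of 2 groups. S100A7 cells carried the S100A7 gene, which encodes a small calcium-binding protein also called psoriasin, in the plasmid pIRES2-EGFP. Vector cells carried pIRES2-EGFP alone, so both groups had been through transfection and selection and both carry the EGFP reporter of that plasmid. Whether each stable line was a clone or a pool is not given in the sources used here, and a degree of confluence is labelled for the vector cells only. There were no replicates, so no difference could be set against the variation among cultures or among stable lines.

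Secreted FGFs bind receptor tyrosine kinases (the FGF receptors) together with heparan sulfate chains on the cell surface, and the receptor passes the signal through adaptor proteins to the ERK kinases. FGF1 and FGF2 leave the cell without a classical signal peptide, whereas FGF5 has one. The intracellular members, also called FGF homologous factors, are not secreted, and they are best known in neurons and heart muscle, where they bind the cytoplasmic tails of voltage-gated sodium channels.

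The transfected gene separated the arrays in the labelled direction: S100A7 read 13232 in S100A7 cells, against 11.99 in vector cells. The median over all probe sets but controls, 69.0 for S100A7 cells and 71.0 for vector cells, was used as a floor of detection. A probe set counted as measured where 1 reading or both reached it. Markers of the line held: VIM, CD44, MSN, CAV1 and AXL were above the floor on both arrays, at 7021 or more in S100A7 cells and 5329 or more in vector cells by their brightest probe sets. The estrogen receptor gene ESR1, the progesterone receptor gene PGR and CDH1 (E-cadherin) were below the floor on both, while ERBB2 (540 in S100A7 cells, 497 in vector cells) and EPCAM (513 in S100A7 cells, 544 in vector cells) were above it. Of 10 markers of blood, vessel, stromal and nerve cells, 3 were measured (MBP, COL1A1 and PECAM1), and PTPRC, TYROBP, LYZ, VWF, DCN and SYP had both readings under the floor. The summed intensity of the 37 probe sets of those markers was 5337 in S100A7 cells and 3946 in vector cells. MBP, known from myelin and also transcribed in other cells, was the 1 marker at least 2-fold apart by its brightest probe set (1568 in S100A7 cells, 660 in vector cells). Its 5 measured probe sets gave log2 ratios of S100A7 over vector from -0.47 to 1.25. Those of the 3 for COL1A1 ran from -0.79 to 0.76, so neither gene had a single direction. The part of other cells in the values below was not tested.

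FGF13 was well above the floor on the vector array and under it on the S100A7 array. Its 1 probe set, 205110_s_at, read 19.9 in S100A7 cells and 2461 in vector cells. The S100A7 value lay under the floor, so the difference is a lower bound, at least 35.7-fold lower or a log2 ratio of -5.16. The S100A7 value was also under the 30th percentile of its array (25.5), and the 2 readings as deposited differed by -6.95 on the log2 scale. A difference in the share of cells with FGF13 and a difference in the level in each cell cannot be told apart in bulk RNA. Without an array of untransfected cells, a fall in S100A7 cells and a rise in vector cells cannot be told apart either. The call rests on a probe set whose suffix _s_at marks probes that can match several transcripts, and no further FGF13 probe set was annotated on the array to set beside it.

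**Figure D1:**
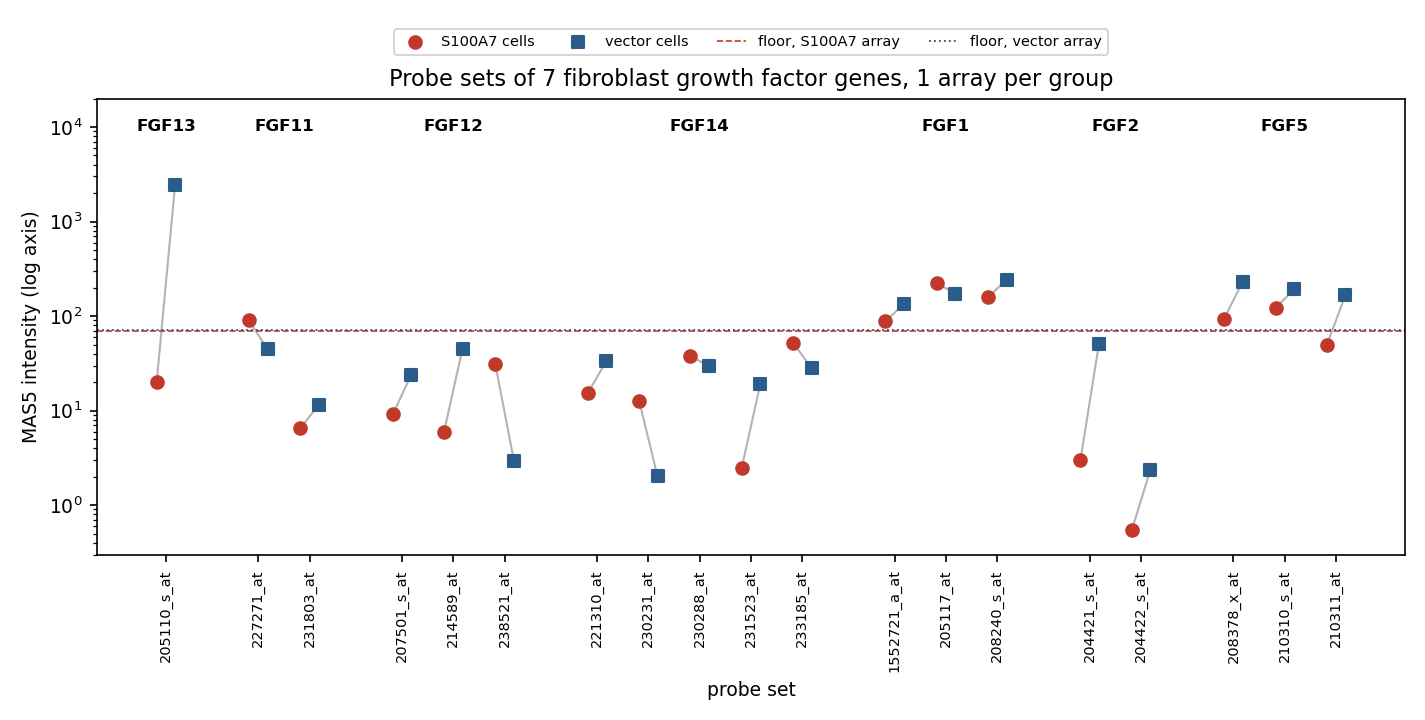
MAS5 intensity on a log axis for each of the 19 probe sets of the 7 genes, with S100A7 cells as circles left of vector cells as squares and a grey line joining the 2 readings of a probe set; dashed and dotted lines are the floors of 69.0 and 71.0. FGF13 reads 19.9 in S100A7 cells and 2461 in vector cells, the 3 FGF5 probe sets are all lower in S100A7 cells, and 11 probe sets lie below the floor on both arrays.

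FGF13 lies on chromosome X, at positions 138614727 to 139205023 of GRCh38.p14 on the minus strand, and spans 590.3 kb with 6 RefSeq transcripts. RefSeq's promoter table gives 2 starts for it, and the sequence before each is shown because FGF13 is the member that differed most and the array does not tell which start the vector cells used. The first lies at the gene's end, chrX:139205024-139205273, and the other lies inside the gene, chrX:138739354-138739603. Both are on the minus strand, cover the 250 bases before the start and are printed 5′ to 3′, with capitals for matches to a motif.
FGF13 outer start: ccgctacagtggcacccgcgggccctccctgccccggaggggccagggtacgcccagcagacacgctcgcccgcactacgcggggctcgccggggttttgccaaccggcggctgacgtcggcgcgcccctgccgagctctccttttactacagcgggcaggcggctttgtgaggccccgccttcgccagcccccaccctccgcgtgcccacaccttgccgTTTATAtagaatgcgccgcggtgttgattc
FGF13 inner start: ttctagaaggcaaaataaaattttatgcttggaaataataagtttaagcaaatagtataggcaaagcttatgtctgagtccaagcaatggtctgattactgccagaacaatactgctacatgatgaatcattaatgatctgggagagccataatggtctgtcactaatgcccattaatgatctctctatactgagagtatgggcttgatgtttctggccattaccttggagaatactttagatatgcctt
The motifs searched on both strands were the TATA box, searched as TATAAA, the GC box, searched as GGGCGG, the CCAAT box by those letters, and the AP-1 site, searched as TGACTCA. The outer sequence held 1 match, to the TATA box on the opposite strand (TTTATA as printed), at 30 to 25 bases before the start. That motif is in 10.7% of 35116 RefSeq promoters of the same length, on either strand and at any place in the 250 bases. The inner sequence held none of these motifs. The outer one was 70.4% G and C with 29 CpG dinucleotides, and the inner one was 36.4% G and C with 0 CpG, against medians of 58% and 11 CpG over all promoters.

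FGF13 also hosts the microRNA gene MIR504, on the same strand, whose 2 mature products are shown with the seed, bases 2 to 8, in capitals because they are encoded within FGF13. Their own levels were not analysed here.
hsa-miR-504-5p: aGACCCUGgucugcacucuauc
hsa-miR-504-3p: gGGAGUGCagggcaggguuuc
The 5p product shares its seed with hsa-miR-4725-5p. FGF13-AS1, a noncoding gene annotated on the opposite strand inside FGF13, was below the floor on both arrays, at 4.07 in S100A7 cells and 9.28 in vector cells.

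After low readings were raised to the floor, the measured chromosomal neighbours of FGF13 differed far less. The nearest measured gene on one side, the noncoding gene LINC00632, lies 1504.7 kb away. It read 21.8 in S100A7 cells and 89.9 in vector cells, at least 1.30-fold lower, too near the floor to show a large fold. Among the 20 nearest measured genes, 10 on each side and up to 10724.5 kb away, log2 ratios ran from -1.16 to 0.27. Their median was -0.23, and 19 lay within 2-fold by these values, some of which are bounds set by the floor. The exception was SPANXB1, a sperm protein gene of the cancer-testis type named after its value was seen (48.4 in S100A7 cells, 154 in vector cells, at least 2.24-fold lower). Over all 394 measured genes of chromosome X the median was -0.16, against -0.04 for all measured genes, and 26 were at least 2-fold lower, with 1 gene higher by that size. The share lower was 6.60% on chromosome X and 2.25% over all measured genes.

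**Figure D2:**
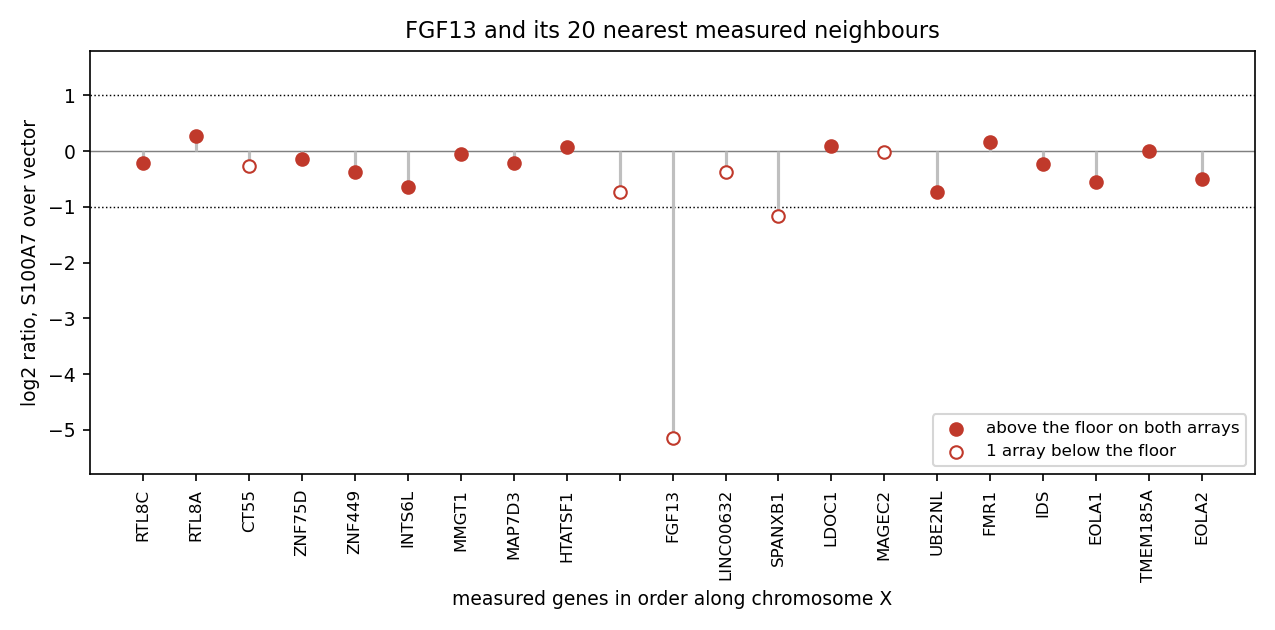
Log2 ratio of S100A7 over vector for FGF13 and the 20 nearest measured genes in their order along chromosome X, with open circles where 1 array was below the floor and dotted lines at 2-fold; 1 neighbour is drawn without its name. FGF13 stands at -5.16, and the neighbours lie between -1.16 and 0.27.

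With low readings raised to the floor, the genes whose log2 ratio came closest to that of FGF13 among 12688 measured genes were IL13RA2, MAGEA6, HBE1 and FAM133A. The ratios of FGF13, MAGEA6, HBE1 and FAM133A are bounds set by the floor and that of IL13RA2 is not, so no order among the 5 genes is given. IL13RA2, a receptor chain for interleukin-13, read 119 in S100A7 cells and 6615 in vector cells. MAGEA6, a cancer-testis antigen, read 21.5 in S100A7 cells and 895 in vector cells, HBE1, the embryonic epsilon globin, read 57.1 in S100A7 cells and 880 in vector cells. FAM133A read 59.1 in S100A7 cells and 603 in vector cells. All but HBE1, which is on chromosome 11, lie on chromosome X. With 2 arrays this likeness is the likeness of a single ratio.

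The other intracellular factors were at or below the limit of measurement. FGF11, the least studied of them, had 1 measured probe set, at 90.1 in S100A7 cells and 44.5 in vector cells, at least 1.27-fold higher. Its other probe set read 6.50 in S100A7 cells and 11.6 in vector cells. Only the S100A7 reading of the first probe set reached a floor, by a small margin.

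FGF12, a sodium channel regulator of neurons and heart, had no measured probe set: its 3 read 5.98 to 30.8 in S100A7 cells and 2.96 to 45.4 in vector cells, 1 of them higher and 2 lower in S100A7 cells. FGF14, in which mutations cause an inherited spinocerebellar ataxia, had 5 probe sets between 2.49 and 52.5 in S100A7 cells and between 2.02 and 33.2 in vector cells, 3 higher and 2 lower. Both genes stayed under the floor on both arrays, so no fold is given. The noncoding genes FGF14-AS2 and FGF14-IT1, annotated within FGF14, were also under it, with FGF14-AS2 at 57.1 and 52.0 in S100A7 cells and 27.0 and 6.96 in vector cells. FGF13 was thus the 1 intracellular member that passed the floor in vector cells.

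FGF5 was lower in S100A7 cells on every probe set. FGF5 is a secreted factor best known for ending the growth phase of the hair follicle in mice. Probe set 210310_s_at read 122 in S100A7 cells and 192 in vector cells, 1.58-fold lower. Probe set 208378_x_at read 94.3 in S100A7 cells and 231 in vector cells, 2.45-fold lower. Probe set 210311_at, which carries no shared-transcript suffix, read 49.7 in S100A7 cells and 165 in vector cells, at least 2.39-fold lower. The gene's value by its brightest probe set, the one with the highest mean log2 intensity, was the smallest of the 3 differences (-0.66), and the median over the 3 was -1.26, past 2-fold. Of 1715 genes with 3 measured probe sets, 435 (25.4%) had all 3 below 0. FGF5 lies on chromosome 4 at 80266588 to 80291017 on the plus strand. The 250 bases before its outer start, chr4:80266338-80266587, are shown beside those of FGF13 because FGF5, like FGF13, was lower on each of its probe sets.
FGF5 outer start: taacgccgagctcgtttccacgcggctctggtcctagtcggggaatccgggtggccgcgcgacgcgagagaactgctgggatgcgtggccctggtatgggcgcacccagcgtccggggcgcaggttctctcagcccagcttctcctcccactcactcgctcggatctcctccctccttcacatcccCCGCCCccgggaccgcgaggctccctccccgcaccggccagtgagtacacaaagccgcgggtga
This sequence held 1 GC box, in capitals, at 64 to 59 bases before the start, a motif found in 42.6% of all promoters. It was 68.8% G and C with 27 CpG, and it held no match to the other motifs searched.

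FGF1 gave readings in both directions. FGF1, a factor that binds every FGF receptor, was above both floors with its 3 probe sets. Probe set 205117_at read 224 in S100A7 cells and 172 in vector cells, 1.30-fold higher. Probe set 208240_s_at read 159 in S100A7 cells and 242 in vector cells, 1.53-fold lower, and 1552721_a_at read 88.4 in S100A7 cells and 134 in vector cells, 1.51-fold lower. The value by the highest mean log2 intensity was 0.38, but that by the highest arithmetic mean was -0.61, so no direction can be given for the gene. The spread of 0.99 between its lowest and highest log2 ratio compared with a median of 0.50 over the 1715 genes with 3 measured probe sets, of which 12.5% had a spread at least as wide. Mixed signs were common among them (843, or 49.2%).

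FGF2, a growth factor for fibroblasts and endothelium, was below the floor on both arrays. Its probe set 204421_s_at read 3.03 in S100A7 cells and 50.9 in vector cells, and 204422_s_at read 0.544 in S100A7 cells and 2.34 in vector cells. NUDT6, which overlaps FGF2 on the opposite strand over 5660 bases, was measured and read 262 in S100A7 cells and 423 in vector cells, 1.61-fold lower, with its other probe set 1.74-fold lower.

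In all, 4 of the 7 genes were measured (FGF1, FGF5, FGF11 and FGF13) and 3 were not (FGF2, FGF12 and FGF14). By the brightest probe set 1 of the 4, FGF13, was at least 2-fold lower and 0 were called at least 2-fold higher. Of all measured genes 2.25% were lower by that size and 1.8% higher. The value of FGF11 is a lower bound, so that gene was not shown to lie within 2-fold. Of 8 measured probe sets 3 were at least 2-fold lower, those of FGF13 and a pair from FGF5, against 2.13% of 24438 measured probe sets. Since the members were picked with these values known, nothing is read from the shares.

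**Figure D3:**
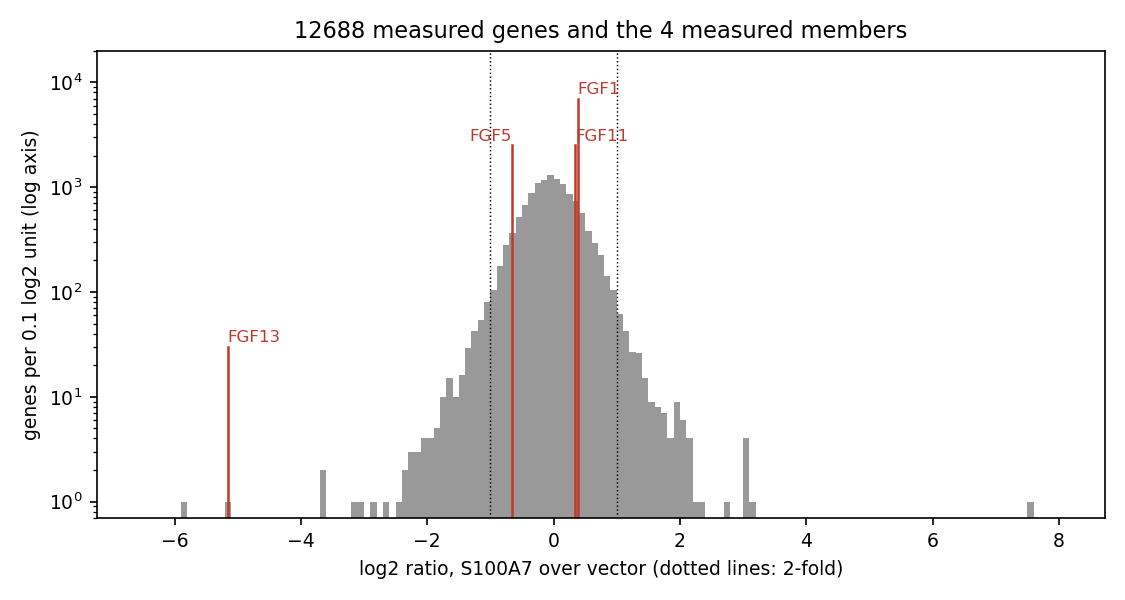
Number of genes (log axis) by log2 ratio of S100A7 over vector for 12688 measured genes, with red lines at the 4 measured members and dotted lines at 2-fold. FGF13 is at -5.16, and FGF5, FGF11 and FGF1 are drawn at -0.66, 0.34 and 0.38. The values of FGF13 and FGF11 are bounds set by the floor, so FGF11 is not shown to lie inside 2-fold.

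The remaining FGF genes were mostly below the floor. Of 15 listed, 6 were measured, and their median log2 ratio was -0.27. FGF6, a factor of skeletal muscle, read 120 in S100A7 cells and 275 in vector cells, 2.29-fold lower. It was the 1 of the 6 called outside 2-fold, where 4.05% of all measured genes were, and nothing is read from a count of 1. Some of the 6 ratios are bounds set by the floor. FGF4, known from the early embryo, read 115 in S100A7 cells and 112 in vector cells, and FGF22, which organizes synapses in mice, read 92.3 in S100A7 cells and 72.4 in vector cells.

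The receptors differed little. FGFR1 read 1610 in S100A7 cells and 1386 in vector cells (log2 ratio 0.22), and all 7 of its measured probe sets were higher in S100A7 cells, with log2 ratios from 0.12 to 1.07. FGFRL1, a receptor-like protein without a kinase domain, read 790 in S100A7 cells and 1225 in vector cells, 1.55-fold lower by that probe set, with the other at -0.13. FGFR3 read 119 in S100A7 cells and 149 in vector cells, with its other probe set at 0.12. All 5 receptor genes were measured and 0 were outside 2-fold, with a median of 0.03, beside 4.05% of all measured genes outside 2-fold in either direction.

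Of the co-receptors and genes of heparan sulfate, 0 were called outside 2-fold by their brightest probe sets, beside 4.05% of all measured genes. Nothing is read from that count, which was 1 with the floor at the 30th percentile and 4 with no floor. The ratios went in both directions, and that of FGFBP3 (73.0 in S100A7 cells, 51.8 in vector cells) is a bound set by the floor. Dimmer probe sets went further for NDST1 (272 in S100A7 cells, 689 in vector cells, 2.53-fold lower) and GPC6 (at least 2.10-fold lower). SDC4 (syndecan-4) read 7789 in S100A7 cells and 7452 in vector cells. EXT1, which polymerizes heparan sulfate, read 4796 in S100A7 cells and 5537 in vector cells, but its other probe sets reached 0.53 on the log2 scale, and its partner EXT2 read 3153 in S100A7 cells and 3142 in vector cells. Of 23 listed genes 14 were measured, with a median of -0.21 and a range from -0.92, for the glypican gene GPC1, to 0.90, for the perlecan gene HSPG2. Both of these genes were named after their values were seen. The co-receptor genes KL and KLB were below the floor on both arrays.

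Genes for the export of FGF1 and FGF2 from the cell included S100A13, a relative of S100A7 that takes part in the export of FGF1. S100A13 read 2767 in S100A7 cells and 2775 in vector cells, which left them almost equal. ANXA2 (annexin A2) read 28519 in S100A7 cells and 36781 in vector cells, 1.29-fold lower. ATP1B1, the beta subunit of the sodium pump, whose alpha subunit takes part in the export of FGF2, read 6969 in S100A7 cells and 4630 in vector cells, 1.51-fold higher. Of the 6 listed genes 5 were measured, with a median of -0.37, and 0 were called outside 2-fold, beside 4.05% of all measured genes. The ratio of TEC (49.8 in S100A7 cells, 92.5 in vector cells) is a bound set by the floor. TEC was therefore not shown to lie within 2-fold.

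The adaptors behind the receptors had the narrowest range of the 7 pathway lists by their brightest probe sets. Dimmer probe sets went further, to log2 ratios of 0.84 for PTPN11 and -0.84 for CBL. SHC1 read 9026 in S100A7 cells and 7252 in vector cells (log2 ratio 0.32, other probe set -0.09), the phosphatase gene PTPN11 read 7825 in S100A7 cells and 6895 in vector cells, and GRB2 read 2697 in S100A7 cells and 2709 in vector cells. The 8 measured genes of 10 listed ran from -0.27 to 0.32, with a median of 0.01.

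Targets and feedback inhibitors of ERK signalling, which many receptors feed besides those of FGFs, had a median of -0.36 over 17 measured genes, 12 below 0 and 5 above. EGR1, an immediate-early transcription factor, was the 1 gene outside 2-fold, at 827 in S100A7 cells and 1759 in vector cells, 2.13-fold lower, with its 3 probe sets from -1.68 to -1.09. All 3 end in _s_at, so EGR1 had no value without such probe sets, and a count of 1 in 17 is close to the 4.05% of all measured genes outside 2-fold. FOSL1, an AP-1 subunit, read 13113 in S100A7 cells and 15652 in vector cells, and MYC read 6623 in S100A7 cells and 8999 in vector cells. PHLDA1 read 6462 in S100A7 cells and 5819 in vector cells, with its 6 probe sets from -1.19 to 0.29. The SPRY, SPRED and DUSP feedback inhibitors went both ways, all within 2-fold by their brightest probe sets. A dimmer SPRED1 probe set was 2.04-fold lower. Every measured probe set of SPRED1, SPRED2, DUSP4 and DUSP6 was lower in S100A7 cells. SPRY2 and DUSP5 were higher, SPRY4 was almost equal and the probe sets of SPRY1 differed in sign.

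Of the sodium channel genes read by a probe set of their own, whose proteins intracellular FGFs bind, only SCN10A reached the floor. SCN10A, a channel of sensory neurons, read 56.5 in S100A7 cells and 121 in vector cells, at least 1.75-fold lower. The scaffold gene MAPK8IP2, whose protein also binds intracellular FGFs, read 186 in S100A7 cells and 209 in vector cells, and its relative MAPK8IP1 read 217 in S100A7 cells and 110 in vector cells, 1.96-fold higher. Of 15 listed genes 3 were measured and 0 were called outside 2-fold, beside 4.05% of all measured genes. The ratio of SCN10A is a bound, and it stood at -1.10 with the floor lowered to the 30th percentile or removed. After median centring of the arrays MAPK8IP1 passed 2-fold, at 1.01.

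**Figure D4:**
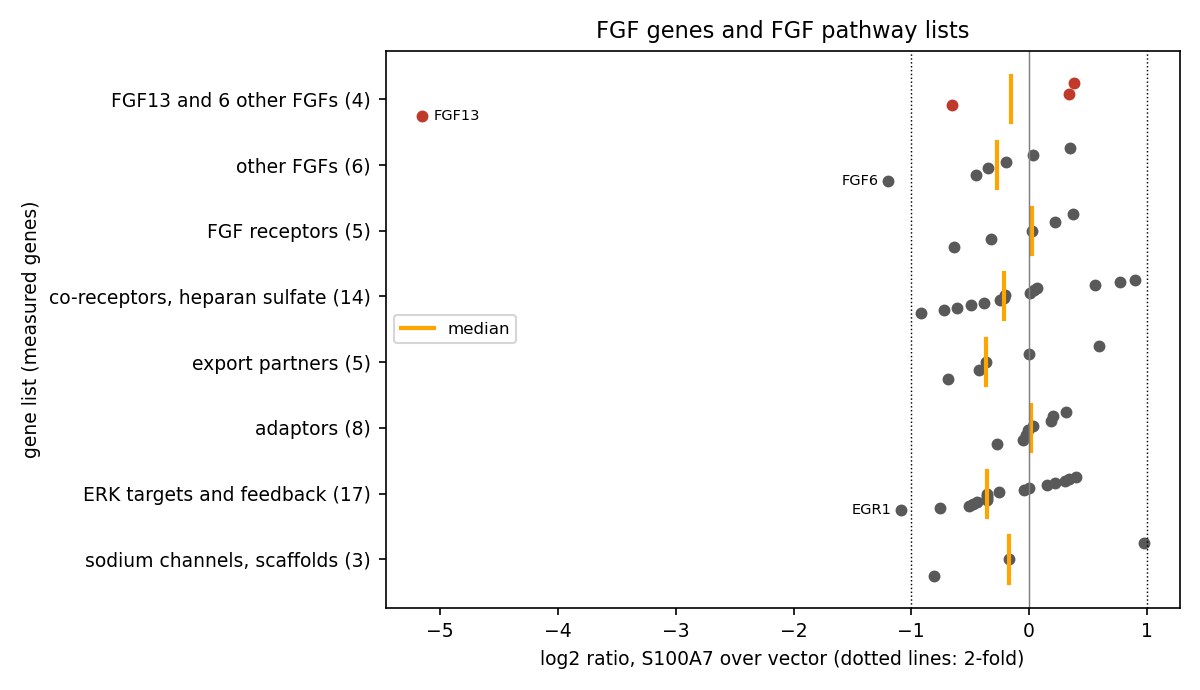
Log2 ratio of S100A7 over vector for each measured gene (points) of 8 lists, with the number measured in brackets, an orange bar at each list's median and dotted lines at 2-fold. Outside 2-fold are FGF13, FGF6 and EGR1, and the medians of the 7 pathway lists lie between -0.37 and 0.03.

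Over the 7 pathway lists, 58 of 91 genes were measured, 2 were at least 2-fold lower (FGF6 and EGR1) and 0 were higher by that size, beside 2.25% and 1.8% of all measured genes, so nothing is read from these counts. The 58 had a median of -0.19 beside -0.04 for all measured genes.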

How the data were processed

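Gene expression was measured on Affymetrix arrays, 1 for S100A7 cells and 1 for vector cells. The authors deposited linear intensity values, 1 for each probe set, and MAS5 is named as their tool per the submitters' processing notes; its version, scaling target and detection calls are not stated there. After trimming 2% at each end both arrays had a mean of 500.1, and no further scaling was applied. The platform annotation gave 41091 probe sets 1 gene, 1801 several and 11721 none, with 62 controls; 41037 were matched by Entrez identifier to RefSeq symbols and positions on GRCh38.p14, the build of the printed sequences. Probe sets with several genes or none were left out. Values below the floor (the 50th percentile of each array) were raised to it, and the brightest measured probe set stood for a gene. With 1 array per group there is no test and no p-value; calls are at least 2-fold, and the number of arrays limits precision. Members and gene lists were chosen with earlier results of these data known. Named were all 7 members, list genes outside 2-fold or among the 3 with the highest intensity, the genes next in rank to FGF13 and its nearest neighbours, of which the one on 1 side is not reported here; any other gene was named after its values were seen. The counting step was tested on simulated data, which says nothing of the spread between cultures. Python 3.11.15, numpy 2.4.6 and pandas 2.3.3 were used. The alternatives were other scalings, floors, thresholds and probe set choices.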

Additional observations from a re-analysis of the deposited data

How the results depend on the processing

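No paired analysis was possible because each group had 1 array, and no replicate could be left out. A value was taken as unmoved when it stayed within 0.36, the pooled standard deviation among probe sets of the same gene on the log2 scale. FGF13 kept its direction in each setting that gave it a value, at -6.59 when the floor was the 30th percentile, -3.12 when it was the 70th, -6.95 with no floor and -5.59 with a pseudocount of 32; without probe sets ending in _x_at or _s_at it had none. FGF5 stood at -1.26 by the median over probe sets and without those suffixes, and at -1.29 by the highest arithmetic mean intensity, an alternative added after the data were seen. FGF1 stood at -0.60 by the median and -0.61 by the arithmetic mean, and FGF11 at 1.02 with the floor lowered to the 30th percentile or removed. Under these floors 7 members were measured, and 1 with the floor at the 70th percentile. Members at least 2-fold lower numbered 3 with no floor and 2 by the median, by the arithmetic mean or at a 1.5-fold threshold, and 1 was at least 2-fold higher with the floor lowered to the 30th percentile or removed. Pathway genes outside the threshold numbered 5 and 1 with floors at the 30th and 70th percentile, 17 with no floor, 13 at 1.5-fold, 0 at 3-fold and 1 without the suffixes. With median centring or a pseudocount of 32 they numbered 3. Measured genes higher and lower numbered 679 and 979 when the floor was the 30th percentile, 99 and 88 when it was the 70th, 1911 and 2387 with none, 1030 and 1275 at 1.5-fold, and 47 and 55 at 3-fold. With a pseudocount of 32 they numbered 318 and 406. Lower floors let dimmer probe sets in, and they raised low readings less or not at all. FGF13 and FGF11 moved in the second way, on the same probe sets. Causes beyond these were not tested. The signal over the floor limits FGF2, FGF11, FGF12 and FGF14, and the fold of FGF13 is a bound set by the floor. FGF1 and FGF5 had no value with the floor at the 70th percentile.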
